A study of Mus musculus with 32 samples.

Results

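The genes described here are 10 genes of glycolysis and of the response to low oxygen: *Slc2a1*, *Hk2*, *Pfkfb3*, *Pgk1*, *Ldha*, *Egln3*, *Car9*, *Vegfa*, *Bnip3* and *Ndrg1*. They were taken by their symbols, and all 10 were found among the 55291 gene symbols of the counts table. The data are bulk RNA-Seq of whole colon and of colon tumors from *Dnase1l3*-KO mice, whose genotype label reads DNase MUT, and from WT mice (DNase WT), both on the C57BL/6 background. There are 32 libraries in 8 groups, with 1 library per mouse in a group. The groups are untreated KO and WT colon (basal condition, D0, 4 mice each), KO and WT colon after 1 cycle of AOM/DSS and 5 days of recovery (D19, 4 mice each), KO and WT colon after 3 cycles (D80, 4 mice each), and tumors collected after 3 cycles from KO (3 mice) and WT (5 mice) animals. AOM stands for azoxymethane, which mutates colon cells and starts tumors, and DSS for dextran sulfate sodium, which injures the colon epithelium when mice drink it. The methods give an age of 3 months at the AOM injection, and the age of the basal mice is not given in the sources used here. The KO is constitutive and present in the whole body, so the groups hold no cell-type-specific deletion, and whole colon includes epithelium, muscle, nerve and immune cells.

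Glycolysis turns glucose into pyruvate and then lactate. Glucose enters the cell through transporters such as the Slc2a1 protein (GLUT1), is trapped by hexokinases such as Hk2, and passes through steps regulated by Pfkfb3 and catalysed by Pgk1 and Ldha, among other enzymes. When oxygen is scarce, HIF-1α escapes hydroxylation by the Egln prolyl hydroxylases and, with its partner Arnt, binds a short core sequence in hypoxia response elements and raises transcription of these glycolysis genes and of *Car9*, *Vegfa*, *Bnip3*, *Ndrg1* and *Egln3* itself. In colon the surface epithelium lies next to the oxygen-poor lumen, and inflammation brings in glycolytic white cells and consumes oxygen. A bulk library holds all these cells at once, so fewer cells of a type and less RNA per cell cannot be told apart in any value below.

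The windows around the start sites of 4 members are shown. *Pfkfb3*, *Egln3* and *Bnip3* were taken because they changed most between stages. *Ldha* has the most core letters of the members with a window and was called in 1 comparison only. The windows are RefSeq's, on build GRCm38.p6, 300 bases long, from 250 bases before to 50 bases after the start, all on the strand of the gene. Capitals mark ACGTG or GCGTG on either strand (read as CACGT or CACGC on the other strand), the core of the hypoxia response element. CACGTG, the E-box that other factors bind, overlaps ACGTG and is counted on both strands. The windows are chr2:11502041-11502340 (minus strand) for *Pfkfb3*, chr12:54203825-54204124 (minus strand) for *Egln3*, chr7:138909457-138909756 (minus strand) for *Bnip3* and chr7:46845554-46845853 (plus strand) for *Ldha*.
Pfkfb3: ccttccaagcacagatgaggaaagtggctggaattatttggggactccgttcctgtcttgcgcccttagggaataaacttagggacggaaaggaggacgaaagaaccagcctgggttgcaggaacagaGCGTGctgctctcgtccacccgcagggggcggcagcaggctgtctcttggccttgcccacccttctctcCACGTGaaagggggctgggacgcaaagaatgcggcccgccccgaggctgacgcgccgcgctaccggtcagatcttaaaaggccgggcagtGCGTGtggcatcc
Egln3: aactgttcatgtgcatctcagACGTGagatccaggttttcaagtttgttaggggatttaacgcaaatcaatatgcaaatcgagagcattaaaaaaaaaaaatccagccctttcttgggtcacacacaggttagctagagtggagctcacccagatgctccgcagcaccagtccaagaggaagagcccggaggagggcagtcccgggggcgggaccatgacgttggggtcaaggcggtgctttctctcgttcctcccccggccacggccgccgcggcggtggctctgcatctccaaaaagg
Bnip3: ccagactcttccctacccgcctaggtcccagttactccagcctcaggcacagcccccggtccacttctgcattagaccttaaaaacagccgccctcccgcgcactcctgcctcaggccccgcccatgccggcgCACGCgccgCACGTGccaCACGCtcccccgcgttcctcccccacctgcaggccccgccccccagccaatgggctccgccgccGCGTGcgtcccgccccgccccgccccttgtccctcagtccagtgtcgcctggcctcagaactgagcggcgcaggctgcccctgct
Ldha: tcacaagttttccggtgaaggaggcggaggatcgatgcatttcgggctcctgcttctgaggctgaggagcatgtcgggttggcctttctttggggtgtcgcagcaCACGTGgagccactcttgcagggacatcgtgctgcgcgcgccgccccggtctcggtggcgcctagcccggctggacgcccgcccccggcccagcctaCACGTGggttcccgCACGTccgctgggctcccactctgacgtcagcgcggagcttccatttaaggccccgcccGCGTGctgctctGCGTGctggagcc
The *Pfkfb3* window held 4 matches, of which 2 form 1 E-box, the *Egln3* window 1 match and no E-box, the *Bnip3* window 5 matches with 1 E-box, and the *Ldha* window 7 matches with 2 E-boxes. RefSeq gives both *Pfkfb3* and *Ldha* a second window, with 1 match and 2 matches. Windows were found for 9 of the 10 members, all except *Ndrg1*, and there were 12 windows in all, of which 11 (91.7%) held a match. Of all 32851 windows of this length, 43.8% held at least 1 match, 20.6% at least 2 and 3.86% at least 4. The window with the most matches among the members was that of *Ldha*, and a relation of matches to changes between stages was not tested. These letters describe the windows only.

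Total counts ranged from 18951121 to 47623288 per library (median 34333251). In 3 libraries, KO D19 mouse 811, WT D80 mouse 581 and KO tumor mouse 544, long genes were low and short genes high relative to their group. Spearman's rho of the deviation from the group median with exon length, across 15305 genes, was -0.618, -0.598 and -0.430 in these 3 libraries, against -0.300 to 0.359 in the other 29. Mitochondrial mRNA made up 10.4%, 14.8% and 7.92% of their counts, against 1.5% to 6.89% in the other 21 libraries of D19, D80 and tumor and up to 11.3% in D0 colon. Members' fold changes that rest on them are followed by the value without them, and the other lists by their counts without them. All 10 colon epithelium markers were detected in each group. Squamous epithelium markers (10 genes, *Krt5*, *Krt14*, *Trp63* and others) summed to 464–649 CPM in KO and 120–1568 CPM in WT tumors, against at most 29.3 CPM in D80 colon. The paper reports strongly reduced *Dnase1l3* expression along the intestine of this KO strain, and the part the allele lacks is not given in the sources used here. The genotype labels were not checked against the *Dnase1l3* counts.

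Per kilobase of exon, the mean level over the 32 libraries was highest for the late glycolytic enzymes. *Ldha* averaged 326 CPM per kb and *Pgk1* 221 CPM per kb (CPM is the count relative to the library total, scaled by TMM factors). The glucose transporter *Slc2a1* followed at 42.5 CPM per kb, then *Egln3* at 33.4, *Hk2* at 29.3, *Car9* at 23.2 and *Ndrg1* at 21.6 CPM per kb. *Vegfa* (8.01), *Bnip3* (6.82) and *Pfkfb3* (2.85 CPM per kb) were the lowest. *Pfkfb3*, the least abundant member, had the largest fold changes between stages.

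The first question of the design was whether the genotypes differed at a stage. None of the 10 members was called (adjusted p under 0.05 in edgeR's quasi-likelihood test, adjusted over all genes tested) in KO over WT at D0, D19, D80 or in tumor. Of all genes tested, edgeR also called 0% at D0, 0% at D19, 0% at D80 and 0% in tumor, while 1750, 2213, 1049 and 1254 genes had an unadjusted p under 0.05 at these stages in turn. DESeq2 called 0.512% of all genes at D0, 1.82% at D19, 0.259% at D80 and 0% in tumor, and voom with quality weights called 0.0550%, 6.62%, 0% and 0% at these stages in turn. Among the members, DESeq2 called 1 at D19 and none elsewhere, and voom called 4 at D19 and none elsewhere. At an unadjusted p under 0.05 edgeR had 0 members at D0, 4 at D19, all higher in KO, 1 at D80, also higher in KO, and 0 in tumor. The median log2 fold change of the members was -0.06 at D0, 0.51 at D19, -0.15 at D80 and -0.07 in tumor, beside 0.01, 0.01, 0.01 and -0.02 over all genes. With the libraries that stand apart left out, edgeR called 0 members and 0% of all genes at D19, D80 and in tumor, and the median of the members was 0.35 at D19, 0.14 at D80 and -0.01 in tumor, so the median at D80 turned positive. Of the members, 5 at D19 and 2 at D80, all higher in KO, and 0 in tumor then had an unadjusted p under 0.05. The number of all genes at that level in these refits is not given here, so these counts have no background beside them.

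The second question was how each genotype moved through the AOM/DSS procedure. At D19 against D0, 2 of 10 members rose and none fell in KO colon, where 13.0% of all genes were called. In WT colon 3 rose and 3 fell, beside 46.8% of all genes. At D80 against D0, 4 rose and 1 fell in KO colon, beside 53.3% of all genes, and 2 rose in WT colon, beside 12.9%. In tumor against D80 colon, 1 member rose in KO, beside 46.4% of all genes, and 1 rose in WT, beside 29.6%. Without WT D80 mouse 581 the count at D80 over D0 in WT was 5 rather than 2, beside 48.2% of all genes, and that in WT tumor over D80 colon 3 rather than 1, beside 54.9%. Without KO D19 mouse 811 the count at D19 over D0 in KO was again 2, beside 27.2% of all genes, and without KO tumor mouse 544 that in KO tumor over D80 colon was again 1, beside 55.8%. The D19 and D80 comparisons of a genotype share its D0 libraries, and the tumor comparisons share its D80 libraries with the D80 comparisons. The number before the mouse number in the labels was 123 to 135 at D0, 97 to 116 at D19 and 74 to 81 at D80. Changes between these stages cannot be told apart from a difference between these numbers, whose meaning is not given. The age of the basal mice is not given either, so age cannot be told apart from stage.

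**Figure D1:**
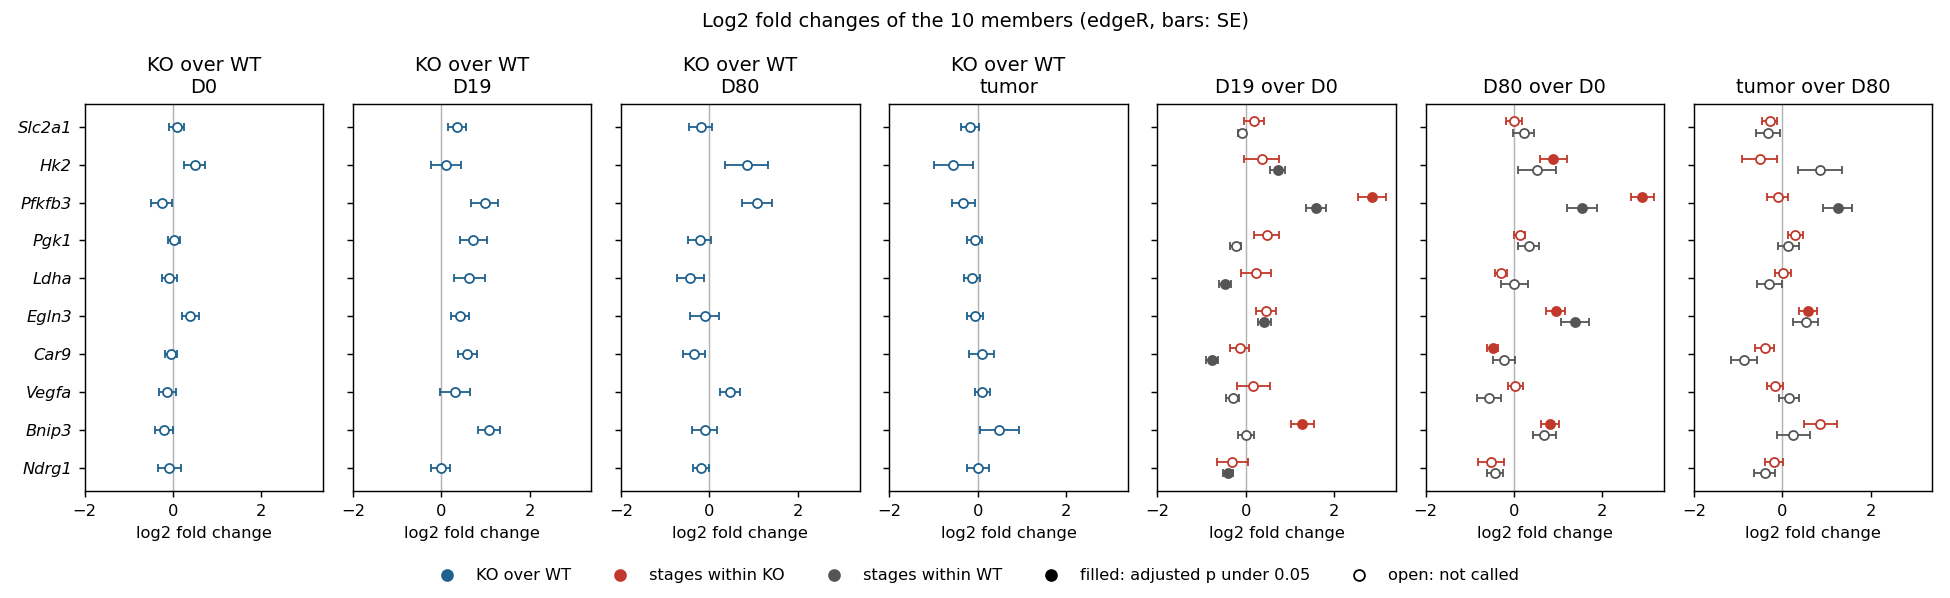
Log2 fold changes (horizontal axes, bars SE) of the 10 members (vertical axis), for KO over WT at 4 stages (blue) and for D19 over D0, D80 over D0 and tumor over D80 colon within KO (red) and WT (gray); filled points have an adjusted p under 0.05 in edgeR. No point is filled in the KO over WT panels, and *Pfkfb3* has the largest values, 2.85 and 2.90 in KO against 1.59 and 1.54 in WT colon.

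*Pfkfb3* (ENSMUSG00000026773, chromosome 2, 11471433 to 11554077, minus strand, GRCm38) encodes the enzyme that makes fructose-2,6-bisphosphate, the activator of phosphofructokinase. The D0 levels were 5.51, 4.54, 3.23 and 3.50 CPM in KO colon, against 5.30, 3.67, 4.66 and 6.59 CPM in WT colon. The D19 levels were 19.8, 45.4, 24.6 and 31.3 CPM in KO colon, against 10.9, 12.4, 18.8 and 19.6 CPM in WT colon. Every D19 library lay above every D0 library of its genotype, and at D19 every KO library lay above every WT library, the closest pair being 19.8 CPM in KO and 19.6 CPM in WT. At D80 it had 48.1, 22.7, 29.2 and 28.1 CPM in KO colon, against 7.87, 18.1, 21.8 and 11.6 CPM in WT colon. In tumors it had 33.2, 32 and 25.8 CPM in KO, against 35.2, 41.1, 58.7, 29.5 and 27.9 CPM in WT. KO D80 libraries lay above WT D80 libraries, whereas the tumors of both genotypes overlapped.

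*Pfkfb3* rose 7.21-fold at D19 over D0 in KO colon (log2 fold change 2.85, SE 0.32, adjusted p = 0.000317, edgeR) and 3-fold in WT colon (1.59, SE 0.23, adjusted p = 0.000567). The rise at D80 over D0 was 7.46-fold in KO colon (2.90, SE 0.26, adjusted p = 2.19e-05) and 2.92-fold in WT colon (1.54, SE 0.34, adjusted p = 0.0188). The KO calls and the WT call at D19 held when any library was left out. The WT call at D80 was lost without WT D0 mouse 851 (log2 fold change 1.55), 918 (1.41) or 920 (1.49) and without WT D80 mouse 541 (1.44) or 542 (1.31), with adjusted p up to 0.0688. In WT tumors *Pfkfb3* rose 2.39-fold over D80 colon (1.26, SE 0.33, adjusted p = 0.0176), a call lost without WT D80 mouse 555 (1.16, adjusted p = 0.055). In KO tumors the value was -0.10 (SE 0.24, adjusted p = 0.749). Leaving out the libraries that stand apart, the rise at D19 was 3.01 in KO colon (adjusted p = 3.99e-05) and that at D80 1.74 in WT colon (adjusted p = 0.000542), and tumor over D80 colon was 0.01 in KO and 1.06 in WT (adjusted p = 0.0145). In order of mean level, KO D0 (4.19 ± 1.04 CPM, SD, n = 4) and WT D0 (5.05 ± 1.22, n = 4) came lowest, then WT D80 (14.9 ± 6.27, n = 4) and WT D19 (15.4 ± 4.42, n = 4), then KO D19 (30.3 ± 11.1, n = 4), KO tumor (30.3 ± 4.01, n = 3) and KO D80 (32 ± 11.1, n = 4), and WT tumor (38.5 ± 12.4, n = 5). Neighbours in that order differed by less than 1 SD, except for the steps between the D0 groups and WT D80 and between WT D19 and KO D19.

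The genotype difference of *Pfkfb3* did not pass the test at any stage. In D0 colon, KO over WT was -0.26 (SE 0.23, adjusted p = 0.746, edgeR). It was 0.98 (SE 0.30, unadjusted p = 0.00875, adjusted p = 0.359) at D19, 1.07 (SE 0.34, unadjusted p = 0.013, adjusted p = 0.681) at D80 and -0.32 (SE 0.25, adjusted p = 0.713) in tumor. The difference between genotypes in the change itself, tested as an interaction, was 1.26 (SE 0.39, adjusted p = 0.293) for D19 over D0, 1.36 (SE 0.44, adjusted p = 0.56) for D80 over D0 and -1.36 (SE 0.45, adjusted p = 0.419) for tumor over D80 colon. Without the libraries that stand apart, KO over WT was 1.12 (adjusted p = 0.195) at D19, 0.87 (adjusted p = 0.431) at D80 and -0.24 in tumor, and the interactions were 1.41 (adjusted p = 0.106), 1.16 (adjusted p = 0.46) and -1.10 (adjusted p = 1). With the number that precedes the mouse number in the labels (the label prefix, whose meaning is not given in the sources used here) as a block, KO over WT was 0.67 (adjusted p = 0.981) at D19, 0.50 (SE 0.11, adjusted p = 0.367) at D80 and -0.76 (adjusted p = 0.787) in tumor. A mouse whose prefix occurs in only 1 genotype at a stage does not enter the fold change with this block. At D80 and in tumor only WT mice 541 and 542 and KO mice 543 and 544 enter it. The genes whose log2 CPM was most like that of *Pfkfb3* over the 32 libraries were *Tnfrsf1b* (Pearson's r = 0.968), *Icam1* (0.966) and *Cp* (0.963), among 16344 genes with a mean of at least 1 CPM. These points share libraries and stages, and the values describe them only.

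White cell markers were higher at D19 and D80 than at D0, as was *Pfkfb3*. The summed level of 10 neutrophil markers (*S100a8*, *S100a9*, *Csf3r* and others, none at 0 in any group) was 324–636 CPM in KO D19 colon and 6.27–146 CPM in WT D19 colon, against 1.32–2.43 CPM in KO and 0.866–2.01 CPM in WT D0 colon. At D80 it was 44.5–234 CPM in KO and 8.82–46.8 CPM in WT colon, and in tumors 478–1011 CPM in KO and 52.3–1370 CPM in WT. The neutrophil sum was higher at D19 than at D80 in KO colon. The 10 macrophage markers summed to 573–995 CPM in KO and 386–487 CPM in WT D19 colon, against 74.8–134 CPM in KO and 75.2–130 CPM in WT D0 colon. At D80 they summed to 461–631 CPM in KO and 396–515 CPM in WT colon, and in tumors the median sum was 349 CPM in KO and 372 CPM in WT, against 567 CPM in KO and 443 CPM in WT D80 colon. In 4 of the 5 WT tumors the macrophage sum lay below every WT D80 library. The neutrophil sum of each WT tumor lay above every WT D80 library. The part of these cells in the *Pfkfb3* values was not tested.

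**Figure D2:**
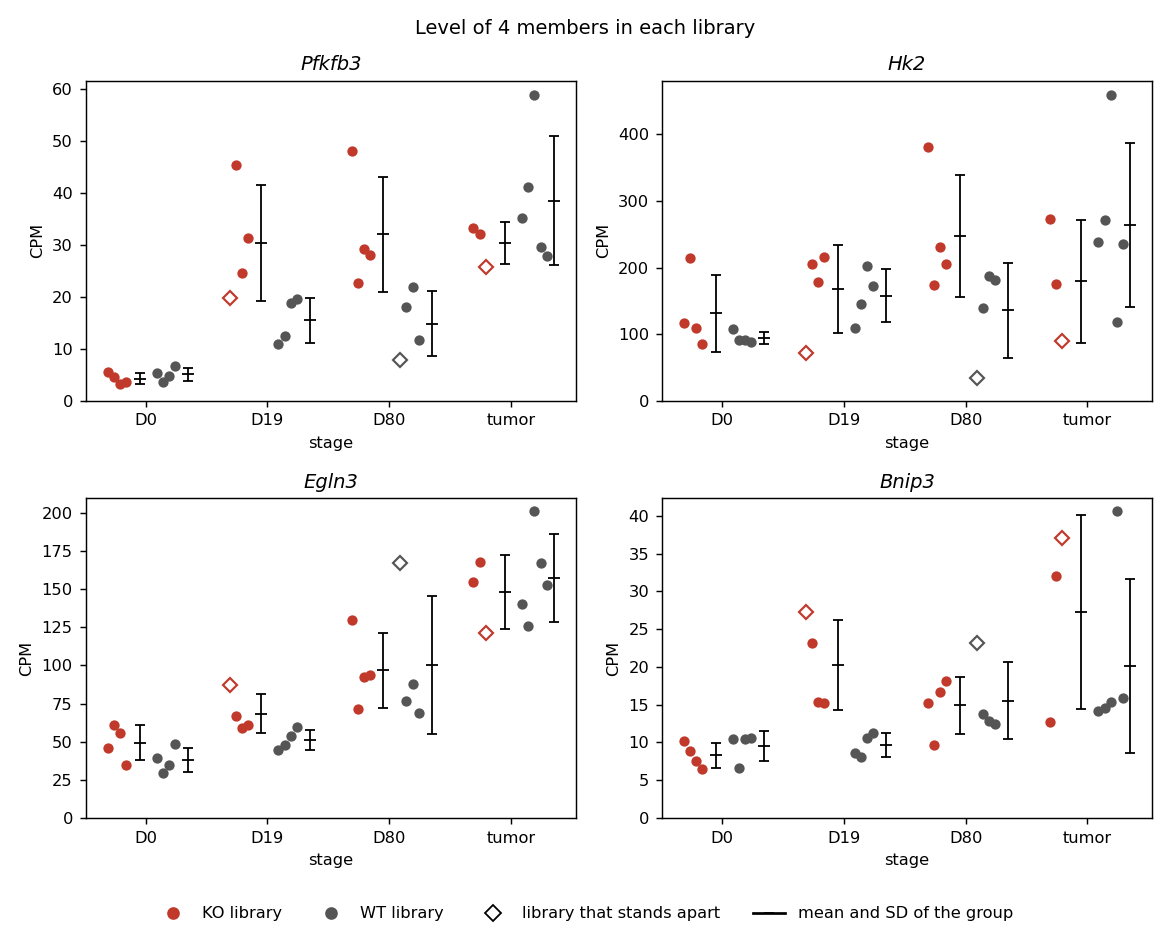
Level (CPM, vertical axes) of *Pfkfb3*, *Hk2*, *Egln3* and *Bnip3* in each library by stage (horizontal axes), KO in red left of WT in gray, with diamonds for the 3 libraries that stand apart and bars for the mean and SD of each group. *Pfkfb3* is at most 6.59 CPM at D0 and at least 7.87 CPM in each later library, and *Egln3* is at least 121 CPM in each tumor.

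*Hk2* (ENSMUSG00000000628, chromosome 6, 82725025 to 82774454, minus strand) encodes the inducible hexokinase that commits glucose to the cell. At D0 it had 116, 215, 109 and 84.8 CPM in KO colon, against 108, 91.9, 90.5 and 87.8 CPM in WT colon. At D19 it had 71.6, 206, 179 and 216 CPM in KO colon, against 109, 146, 202 and 173 CPM in WT colon. The WT D19 libraries lay above the WT D0 libraries, the closest pair being 109 and 108 CPM, whereas KO D19 mouse 811, a library that stands apart, had the lowest KO value. At D80 it had 381, 174, 231 and 206 CPM in KO colon, against 34.2, 140.3, 188.3 and 182.1 CPM in WT colon, the 34.2 CPM being WT D80 mouse 581. In tumors it had 273, 175 and 89.2 CPM in KO, against 239, 271, 459, 118 and 235 CPM in WT. All these group pairs except WT D19 and WT D0 overlapped.

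*Hk2* rose 1.65-fold at D19 over D0 in WT colon (log2 fold change 0.72, SE 0.17, adjusted p = 0.00609, edgeR) and 1.85-fold at D80 over D0 in KO colon (0.89, SE 0.31, adjusted p = 0.0337). The KO call at D80 was lost without KO D0 mouse 852 (0.80), 915 (0.78) or 872 (0.70) and without KO D80 mouse 527 (0.61) or 543 (0.93). In KO colon at D19 the value was 0.36 (SE 0.39, adjusted p = 0.702), and 0.61 (adjusted p = 0.133) without mouse 811. In WT colon at D80 it was 0.52 (SE 0.44, adjusted p = 0.536), and without mouse 581 it was 0.83 (adjusted p = 0.000673), which is a call. *Hk2* in tumor over D80 colon was -0.51 (SE 0.39, adjusted p = 0.303) in KO and 0.85 (SE 0.50, adjusted p = 0.227) in WT. With the mouse as a block, which pairs the tumor and colon of 3 mice in each genotype, these values were -0.71 (adjusted p = 0.0666) in KO and 0.77 (adjusted p = 0.0277) in WT. They were -0.17 (SE 0.32, adjusted p = 0.675) in KO and 0.53 (SE 0.37, adjusted p = 0.246) in WT without the libraries that stand apart. The interaction of genotype and tumor over D80 colon was -1.36 (SE 0.69, adjusted p = 0.448), and -0.75 (SE 0.55, adjusted p = 1) without these libraries, so a difference between the genotypes in this change was not called and its size was smaller without them. KO over WT ranged from -0.55 in tumor to 0.84 at D80, with no call. It was 0.34 at D19, 0.51 at D80 and -0.24 in tumor without the libraries that stand apart. With the label prefix as a block it was -1.45 (SE 0.49, unadjusted p = 0.0182, adjusted p = 0.787, edgeR) in tumor and 0.39 at D80. Only WT mice 541 and 542 and KO mice 543 and 544 enter these block values, and KO tumor mouse 544 stands apart.

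*Slc2a1* (ENSMUSG00000028645, chromosome 4, 119108711 to 119137983, plus strand) encodes GLUT1, the transporter that brings glucose into most cells. It was not called in any comparison, and its log2 fold changes lay between -0.33 and 0.35. Group means ranged from 126 ± 13.8 CPM (SD, n = 3) in KO tumors to 171 ± 37.4 CPM (SD, n = 4) in KO D19 colon. D19 colon had 227, 157, 156 and 145 CPM in KO colon, against 120, 139, 147 and 138 CPM in WT colon. The groups overlapped, and the 227 CPM of mouse 811 stood alone. At D80 the 4 WT libraries had 257, 136, 137 and 137 CPM, with the highest value again in a library that stands apart, mouse 581. At D19, KO over WT was 0.35 (SE 0.20, adjusted p = 0.498, edgeR) with mouse 811 and 0.16 (SE 0.10, adjusted p = 0.436) without it. In tumor over D80 colon it was -0.28 (SE 0.17, adjusted p = 0.193) in KO and -0.33 (SE 0.27, adjusted p = 0.383) in WT, and -0.20 and -0.03 without the libraries that stand apart. At D80, KO over WT was -0.20, and 0.11 without mouse 581, and D80 over D0 in WT colon was 0.22, and -0.07 without it, so this library set both signs.

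*Pgk1* (ENSMUSG00000062070, chromosome X, 106187100 to 106203699, plus strand) encodes phosphoglycerate kinase, which makes the first ATP of the pathway's pay-off phase. Its level is uncertain, because the processed pseudogenes *Pgk1-rs7* and *Gm5537* share all of their 31-base words with its transcripts and were listed at 52.8–59.2% and 51.8–57.8% of its count in each library. The D19 levels were 939, 389, 492 and 512 CPM in KO colon, against 284, 342, 435 and 364 CPM in WT colon. Tumors had 570, 591 and 582 CPM in KO, against 633, 685, 661, 611 and 537 CPM in WT. D80 colon had 494, 375, 461 and 525 CPM in KO, against 759, 441, 479 and 414 CPM in WT. In KO each tumor lay above each D80 colon library, and in WT each tumor lay above each D80 library except the 759 CPM of mouse 581.

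No *Pgk1* fold change was called. In tumor over D80 colon it was 0.30 (SE 0.18, adjusted p = 0.188, edgeR) in KO and 0.14 (SE 0.23, adjusted p = 0.698) in WT. Without WT D80 mouse 581 the WT value was 0.38 (SE 0.11, adjusted p = 0.015), and with the mouse as a block 0.39 (SE 0.11, adjusted p = 0.0396), both calls. The block also takes mouse 581, which gave no tumor library, out of the fold change. Without KO tumor mouse 544 the KO value was again 0.30 (SE 0.13, adjusted p = 0.0789). With the counts of its copies added, the values over all libraries were 0.25 in KO and 0.10 in WT. At D19, KO over WT was 0.73 (SE 0.31, unadjusted p = 0.0398, adjusted p = 0.431), and 0.37 (SE 0.16, adjusted p = 0.30) without mouse 811.

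*Ldha* (ENSMUSG00000063229, chromosome 7, 46841475 to 46855627, plus strand) encodes the lactate dehydrogenase subunit that favours lactate formation. It was the most abundant member, with group means from 859 ± 111 CPM in WT D19 colon to 1316 ± 659 CPM in KO D19 colon (SD, n = 4 each). At D19 it had 2295, 867, 1009 and 1094 CPM in KO colon, against 710, 847, 969 and 908 CPM in WT colon. D0 colon had 921, 1114, 1023 and 1370 CPM in KO colon, against 928, 1248, 1259 and 1258 CPM in WT colon. The 3 KO D19 libraries other than mouse 811 lay within the range of KO D0 or just under it, and 3 of 4 WT D0 libraries lay above all WT D19 libraries. *Ldha* fell 1.38-fold at D19 over D0 in WT colon (log2 fold change -0.47, SE 0.14, adjusted p = 0.0201, edgeR), a call lost without WT D19 mouse 685 (-0.39, adjusted p = 0.0548). In KO colon the D19 value was 0.23 (SE 0.33, adjusted p = 0.785), and -0.16 (SE 0.19, adjusted p = 0.554) without mouse 811, so 1 library set its sign. At D80 over D0 it was -0.29 (SE 0.14, adjusted p = 0.105) in KO colon, and -0.39 (adjusted p = 0.0489) without KO D0 mouse 852, and 0.01 (SE 0.30, adjusted p = 0.987) in WT colon, and -0.32 (adjusted p = 0.0923) without mouse 581. Tumor over D80 colon was 0.02 in KO and -0.29 (SE 0.28, adjusted p = 0.461) in WT, with no call. Leaving out mouse 544 in KO and mouse 581 in WT, it was 0.14 in KO and 0.04 (SE 0.11, adjusted p = 0.756) in WT, so mouse 581 set the sign of the WT value. Its pseudogene *Ldha-ps2* was listed at 3.87–5.47% of its count.

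**Figure D3:**
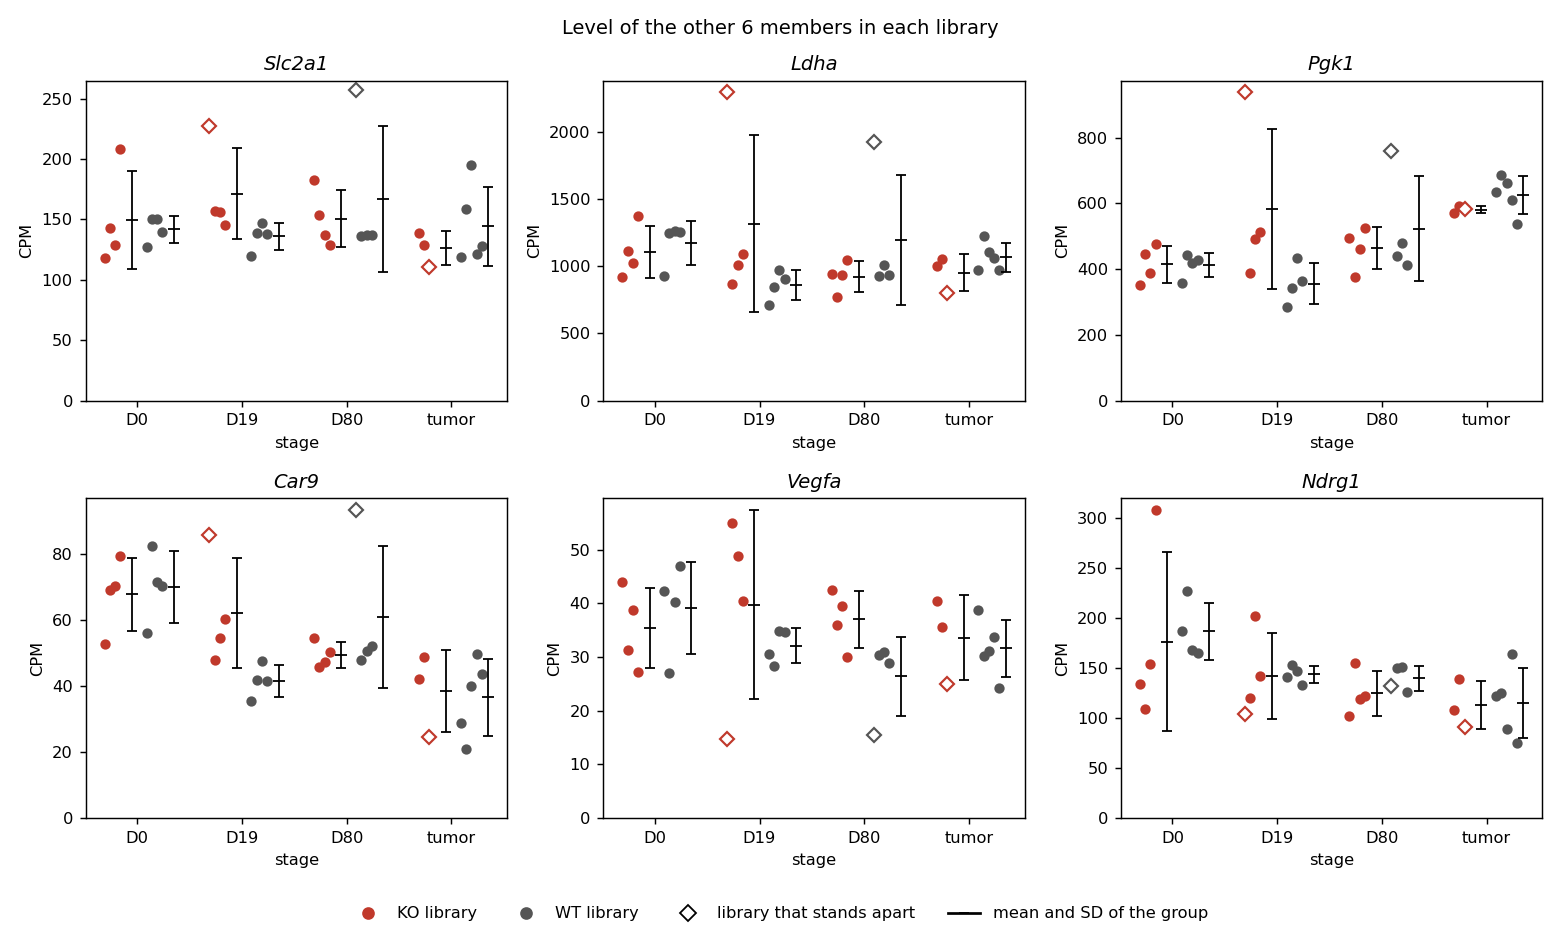
Level (CPM, vertical axes) of *Slc2a1*, *Ldha*, *Pgk1*, *Car9*, *Vegfa* and *Ndrg1* in each library by stage (horizontal axes), KO in red left of WT in gray, with diamonds for the 3 libraries that stand apart and bars for the mean and SD of each group. KO D19 mouse 811 and WT D80 mouse 581 have the highest *Ldha* values of all, 2295 and 1920 CPM, and the lowest *Vegfa* values, 14.8 and 15.5 CPM.

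*Egln3* (ENSMUSG00000035105, chromosome 12, 54178981 to 54203860, minus strand) encodes PHD3, a prolyl hydroxylase that marks HIF-α for destruction and is itself a HIF target. The D0 levels were 45.8, 61.2, 55.7 and 35 CPM in KO colon, against 39.6, 29.6, 34.7 and 48.2 CPM in WT colon. D19 colon had 87.1, 66.6, 59 and 60.8 CPM in KO colon, against 44.5, 47.9, 53.7 and 59.5 CPM in WT colon. D19 and D0 overlapped in both genotypes. At D80 it had 130, 71.2, 92.3 and 93.5 CPM in KO colon, against 167, 77, 87.7 and 68.9 CPM in WT colon. In tumors it had 155, 168 and 121 CPM in KO, against 140, 126, 201, 167 and 153 CPM in WT. Every D80 library lay above every D0 library of its genotype, and tumors overlapped D80 colon only through the highest D80 library of each genotype, 130 CPM in KO and 167 CPM in WT.

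The group means of *Egln3* stood in rising order of the stages in both genotypes. The means were 49.4 ± 11.6, 68.4 ± 12.9, 96.7 ± 24.4 and 148 ± 24.3 CPM in KO at D0, D19, D80 and in tumor, and 38.0 ± 7.89, 51.4 ± 6.62, 100 ± 45.3 and 157 ± 28.4 CPM in WT (SD, n as above). It rose at D80 over D0, 1.91-fold in KO colon (log2 fold change 0.94, SE 0.21, adjusted p = 0.00376, edgeR) and 2.61-fold in WT colon (1.38, SE 0.31, adjusted p = 0.0196). The WT call was lost without WT D0 mouse 851 (1.39), 918 (1.28) or 920 (1.33), with adjusted p up to 0.075, and without WT D80 mouse 581 the value was 1.01 (adjusted p = 0.000869). At D19 over D0 it rose 1.34-fold in WT colon (0.42, SE 0.15, adjusted p = 0.039), a call that was lost without WT D0 mouse 851 (0.43), 918 (0.31) or 920 (0.37) or WT D19 mouse 686 (0.45), 805 (0.40) or 812 (0.34). In KO colon the D19 value was 0.46 (SE 0.22, adjusted p = 0.269), and 0.33 (adjusted p = 0.219) without mouse 811.

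*Egln3* rose in tumor over D80 colon 1.5-fold in KO (0.58, SE 0.21, adjusted p = 0.0494), at the threshold. That call was lost without KO D80 mouse 535 (0.48), 543 (0.56) or 544 (0.56), without KO tumor mouse 527 (0.57) or 543 (0.51), and with the mouse as a block (0.48, adjusted p = 0.116). It held without KO tumor mouse 544, which stands apart (0.72, adjusted p = 0.0187). In WT tumors the value was 0.53 (SE 0.29, adjusted p = 0.198), and it was 0.90 (adjusted p = 0.00199) without WT D80 mouse 581 and 0.92 (adjusted p = 0.00722) with the mouse as a block. The block also takes mouse 581 out of the fold change. In D0 colon, KO over WT was 0.39 (SE 0.19, adjusted p = 0.532). It was 0.43 (SE 0.20, adjusted p = 0.442) at D19, -0.11 at D80 and -0.06 in tumor, and 0.26, 0.28 and 0.03 at these stages in turn without the libraries that stand apart, so the signs at D80 and in tumor depended on them. With the label prefix as a block it was 0.63 (SE 0.16, unadjusted p = 0.00245, adjusted p = 0.159, edgeR) at D0. KO mouse 872 and WT mouse 927, whose prefixes occur in only 1 genotype at D0, do not enter this value. The genes most like *Egln3* over the 32 libraries were *Krt36* (Pearson's r = 0.926), *Ly6d* (0.92) and *Skap2* (0.92). In tumors the squamous marker sum was also higher than in D80 colon (464–649 CPM in KO and 120–1568 CPM in WT tumors, against 4.58–29.3 CPM in KO and 9.05–20.1 CPM in WT D80 colon), and its part in the *Egln3* values was not tested.

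*Bnip3* (ENSMUSG00000078566, chromosome 7, 138890836 to 138909519, minus strand) encodes a mitochondrial protein that promotes removal of mitochondria in low oxygen. At D0 it had 10.2, 8.86, 7.55 and 6.48 CPM in KO colon, against 10.5, 6.57, 10.5 and 10.6 CPM in WT colon. At D19 it had 27.2, 23.2, 15.3 and 15.2 CPM in KO colon, against 8.58, 8.07, 10.6 and 11.3 CPM in WT colon. In KO every D19 library lay above every D0 library, in WT the stages overlapped, and at D19 every KO library lay above every WT library. At D80 it had 15.2, 9.61, 16.7 and 18.1 CPM in KO colon, against 23.1, 13.8, 12.8 and 12.4 CPM in WT colon. In tumors it had 12.7, 32 and 37.1 CPM in KO, against 14.1, 14.5, 15.3, 40.6 and 15.9 CPM in WT. The tumors thus held 3 libraries at 32 CPM or more, from both genotypes, and 5 at 15.9 CPM or less.

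*Bnip3* rose 2.42-fold at D19 over D0 in KO colon (log2 fold change 1.28, SE 0.26, adjusted p = 0.00872, edgeR), and its value in WT colon was -0.00 (SE 0.18, adjusted p = 0.986). The interaction of genotype and stage was 1.28 (SE 0.32, unadjusted p = 0.000957, adjusted p = 0.186), so the difference between the genotypes was not called in edgeR. At D19, KO over WT was 1.08 (SE 0.25, unadjusted p = 0.00167, adjusted p = 0.309). Without mouse 811 the values were 1.12 (adjusted p = 0.00462) for D19 over D0 in KO, 0.89 (SE 0.19, adjusted p = 0.195) for KO over WT and 1.11 (adjusted p = 0.109) for the interaction. It also rose at D80 over D0 in KO colon, 1.76-fold (0.81, SE 0.21, adjusted p = 0.00831), and in WT colon the value was 0.68 (SE 0.26, adjusted p = 0.135), and 0.42 (SE 0.17, adjusted p = 0.0654) without mouse 581. In tumor over D80 colon it was 0.86 (SE 0.37, adjusted p = 0.0849) in KO, and 1.22 (adjusted p = 0.00992) without KO tumor mouse 527, and 0.25 (SE 0.37, adjusted p = 0.643) in WT. These values were 0.56 (adjusted p = 0.227) in KO and 0.51 (adjusted p = 0.252) in WT without the libraries that stand apart. KO over WT in tumor was 0.49 (SE 0.44, adjusted p = 0.735), 0.16 without mouse 544, and 1.26 (SE 0.30, unadjusted p = 0.00349, adjusted p = 0.787, edgeR) with the label prefix as a block. The block value rests on WT mice 541 and 542 and KO mice 543 and 544. KO mouse 527 (12.7 CPM) and WT mouse 579 (40.6 CPM) do not enter it. The pseudogene *Gm6532* shares 64.1% of its 31-base words with *Bnip3* and was listed at 26.8–49.3% of its count. With the copies added, D19 over D0 in KO was 1.25 (adjusted p = 0.0097) and KO over WT at D19 was 1.07 (adjusted p = 0.309).

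*Car9* (ENSMUSG00000028463, chromosome 4, 43506966 to 43513729, plus strand) encodes the cell surface carbonic anhydrase IX, which handles acid from glycolysis and is a widely used hypoxia marker. D0 colon had 52.8, 69.2, 70.3 and 79.4 CPM in KO colon, against 56.0, 82.6, 71.6 and 70.5 CPM in WT colon. The D19 levels were 85.9, 47.9, 54.5 and 60.3 CPM in KO colon, against 35.6, 42.0, 47.6 and 41.5 CPM in WT colon. Every WT D19 library lay below every WT D0 library, and every KO D19 library lay above every WT D19 library, the closest pair being 47.9 CPM in KO and 47.6 CPM in WT. At D80 it had 54.7, 45.7, 47.4 and 50.3 CPM in KO colon, against 93.4, 48.1, 50.7 and 52.2 CPM in WT colon. In tumors it had 42.1, 48.8 and 24.6 CPM in KO, against 28.7, 20.9, 40.0, 49.8 and 43.6 CPM in WT. Apart from mouse 581, the WT D80 libraries lay within the range of the KO D80 libraries.

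*Car9* fell 1.70-fold at D19 over D0 in WT colon (log2 fold change -0.77, SE 0.13, adjusted p = 0.000972, edgeR) and 1.40-fold at D80 over D0 in KO colon (-0.48, SE 0.12, adjusted p = 0.0065). In KO colon at D19 it was -0.14 (SE 0.22, adjusted p = 0.811), and -0.32 (adjusted p = 0.145) without mouse 811. In WT colon at D80 it was -0.22 (SE 0.25, adjusted p = 0.669), and -0.50 (adjusted p = 0.00954) without mouse 581. Tumor over D80 colon was -0.40 (SE 0.21, adjusted p = 0.143) in KO and -0.86 (SE 0.30, adjusted p = 0.0563) in WT, where the mouse as a block gave -0.70 (adjusted p = 0.0457). Leaving out the libraries that stand apart, it was -0.15 (SE 0.10, adjusted p = 0.236) in KO and -0.57 (SE 0.25, adjusted p = 0.0766) in WT. KO over WT at D19 was 0.59 (SE 0.22, unadjusted p = 0.0245, adjusted p = 0.421) and its interaction 0.63 (SE 0.26, adjusted p = 0.546), and 0.37 and 0.43 without mouse 811. The 10 colon epithelium markers summed to 10793–14433 CPM in KO and 12942–14406 CPM in WT D19 colon, against 15804–26362 CPM in KO and 19283–26583 CPM in WT D0 colon. Their part in the *Car9* values was not tested.

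*Vegfa* (ENSMUSG00000023951, chromosome 17, 46016993 to 46032369, minus strand) encodes the main growth factor for blood vessels. It was not called in any comparison. D19 colon had 14.8, 55, 48.8 and 40.5 CPM in KO colon, against 30.6, 28.3, 34.9 and 34.7 CPM in WT colon. At D0 it had 44.0, 31.4, 38.8 and 27.3 CPM in KO colon, against 42.3, 27.0, 40.2 and 46.9 CPM in WT colon. Apart from mouse 811, the KO D19 libraries lay above all WT D19 libraries. KO over WT at D19 was 0.31 (SE 0.34, adjusted p = 0.704, edgeR) with mouse 811 and 0.57 (SE 0.13, adjusted p = 0.195) without it. At D19 over D0 in WT colon it was -0.30 (SE 0.15, adjusted p = 0.128), and -0.45 (adjusted p = 0.00478) without WT D0 mouse 918. At D80 over D0 it was 0.03 (SE 0.17) in KO and -0.57 (SE 0.27, adjusted p = 0.225) in WT colon, and -0.40 (adjusted p = 0.0682) in WT without mouse 581. Tumor over D80 colon was -0.17 in KO and 0.15 in WT, and 0.01 and -0.04 without the libraries that stand apart, with both signs turned.

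*Ndrg1* (ENSMUSG00000005125, chromosome 15, 66929318 to 66969640, minus strand) encodes a protein of epithelial differentiation that is induced by low oxygen and stress. At D19 it had 104, 120, 202 and 142 CPM in KO colon, against 141, 153, 147 and 133 CPM in WT colon. At D0 it had 134, 109, 154 and 308 CPM in KO colon, against 187, 227, 168 and 165 CPM in WT colon. Every WT D19 library lay below every WT D0 library, and KO stages overlapped. *Ndrg1* fell 1.32-fold at D19 over D0 in WT colon (log2 fold change -0.40, SE 0.11, adjusted p = 0.0154, edgeR), and was -0.31 (SE 0.35, adjusted p = 0.71) in KO colon, and -0.18 without mouse 811. Its group means stood in falling order of the stages in both genotypes, at 176, 142, 125 and 113 CPM in KO (D0, D19, D80, tumor) and 187, 144, 140 and 115 CPM in WT. The D80 over D0 value was -0.52 (SE 0.29, adjusted p = 0.156) in KO and -0.43 (SE 0.18, adjusted p = 0.166) in WT colon, where it was called without mouse 581 (-0.41, adjusted p = 0.0291). Tumor over D80 colon was -0.18 (SE 0.20, adjusted p = 0.492) in KO and -0.40 (SE 0.23, adjusted p = 0.225) in WT, and -0.69 (adjusted p = 0.0141) in WT with the mouse as a block. It was -0.04 in KO without mouse 544 and -0.43 in WT without mouse 581. KO over WT lay between -0.20 and 0.00 at all stages, with no call, and was 0.10 at D19, -0.21 at D80 and 0.11 in tumor without these libraries. With the label prefix as a block it was -0.48 (unadjusted p = 0.0199, adjusted p = 0.359, edgeR) at D0 and -0.34 (unadjusted p = 0.00446, adjusted p = 0.355) at D80. It was 0.01 at D19 and 0.14 in tumor with that block, again with no call.

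The members therefore did not form a single rising or falling group. Over the 32 libraries, 23 of the 45 pairs of members had a positive Pearson's r of log2 CPM and 22 a negative one. The highest r were 0.73 for *Slc2a1* with *Ldha* and 0.728 for *Pfkfb3* with *Egln3*, and the lowest was -0.673 for *Ndrg1* with *Egln3*. Spearman's rho for these pairs was 0.523, 0.745 and -0.661, and the highest rho was 0.768, for *Pgk1* with *Egln3*. KO D19 mouse 811 and WT D80 mouse 581, which stand apart, had the highest values of both *Slc2a1* and *Ldha*. These values describe libraries that share stages and, in 3 cases, the relation to gene length, and carry no test. In WT colon at D19 over D0, *Pfkfb3*, *Hk2* and *Egln3* rose and *Ldha*, *Car9* and *Ndrg1* fell, beside 46.8% of all genes called. The transporter *Slc2a1* (-0.08) and *Pgk1* (-0.23) were not called there, nor were *Vegfa* and *Bnip3*. The *Ldha* and *Egln3* calls were lost when some single libraries were left out.

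With the mouse as a block, the number of members called in tumor over D80 colon was 0 in KO, against 1 without the block, and 6 in WT, against 1 without it. Of all genes, 28.9% in KO and 48.6% in WT were called with the block, against 46.4% in KO and 29.6% in WT without it. A mouse without both samples, such as WT D80 mouse 581, does not enter the fold change with the block. The WT fits with the block and without mouse 581 are therefore not separate checks. The 6 in WT were *Hk2*, *Pgk1*, *Pfkfb3* (1.19, adjusted p = 0.00347) and *Egln3*, which were higher in tumor, and *Car9* and *Ndrg1*, which were lower. The genotype differences in these changes were not called in edgeR. The interaction test called 0 members for D19 over D0 (4 at an unadjusted p under 0.05, all higher in KO), 0 for D80 over D0 (1, higher in KO) and 0 for tumor over D80 colon (1, lower in KO). Of all genes, edgeR called 0.0298% for D19, 0% for D80 and 0% for tumor, with 1643, 1542 and 2385 genes at an unadjusted p under 0.05. Without the libraries that stand apart it called 0 members in each of these and 0.166%, 0% and 0% of all genes, and with the mouse as a block 0 members and 0.00490% of all genes for tumor. DESeq2 called 0.873%, 0.178% and 0% of all genes, and voom with quality weights 5.06%, 0.341% and 0%. Among the members, DESeq2 called *Bnip3* for D19 (1.32, adjusted p = 0.0267), voom called 2 for D19, and neither called any for D80 or tumor.

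At D19 the members with the smallest p for KO over WT were *Bnip3*, *Pfkfb3*, *Car9* and *Pgk1*, all higher in KO. These are the members that voom called, at log2 fold changes of 0.67, 0.87, 0.46 and 0.51, and *Bnip3* is the member that DESeq2 called (1.09, adjusted p = 0.0147). Without mouse 811, whose short genes are high, edgeR called none, and *Pgk1* was 0.37, *Car9* 0.37 (SE 0.12, adjusted p = 0.215) and *Ldha* 0.20 (SE 0.14, adjusted p = 0.497, against 0.64 with it). *Bnip3* and *Pfkfb3*, at 0.89 and 1.12, kept most of their size (unadjusted p = 0.00163 and 0.00256, edgeR). *Vegfa* was then 0.57 (SE 0.13, unadjusted p = 0.00217, adjusted p = 0.195), against 0.31 with mouse 811. The neutrophil sums of 324–636 CPM in KO and 6.27–146 CPM in WT D19 colon did not overlap, nor did the macrophage sums, and their part in these values was not tested.

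In the libraries that stand apart the members split by exon length. In KO D19 mouse 811 the 6 members with exons of 3506 bases or less lay above the mean of the other KO D19 libraries, by a log2 ratio of 0.49 (*Egln3*) to 1.21 (*Ldha*). The 4 members of 4285 bases or more lay below it, from -0.58 (*Ndrg1*) to -1.70 (*Vegfa*). WT D80 mouse 581 showed the same split, with 0.77 (*Pgk1*) to 1.10 (*Egln3*) for the 6 shorter and -0.11 (*Ndrg1*) to -2.32 (*Hk2*) for the 4 longer members. In KO tumor mouse 544, *Bnip3* was above the mean of the other KO tumors (0.73), *Pgk1* was at 0.00, and the other 8 were below it, *Hk2* most (-1.33). A comparison of short with long members, such as *Ldha* with *Hk2*, thus depends on whether these libraries are included.

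**Figure D4:**
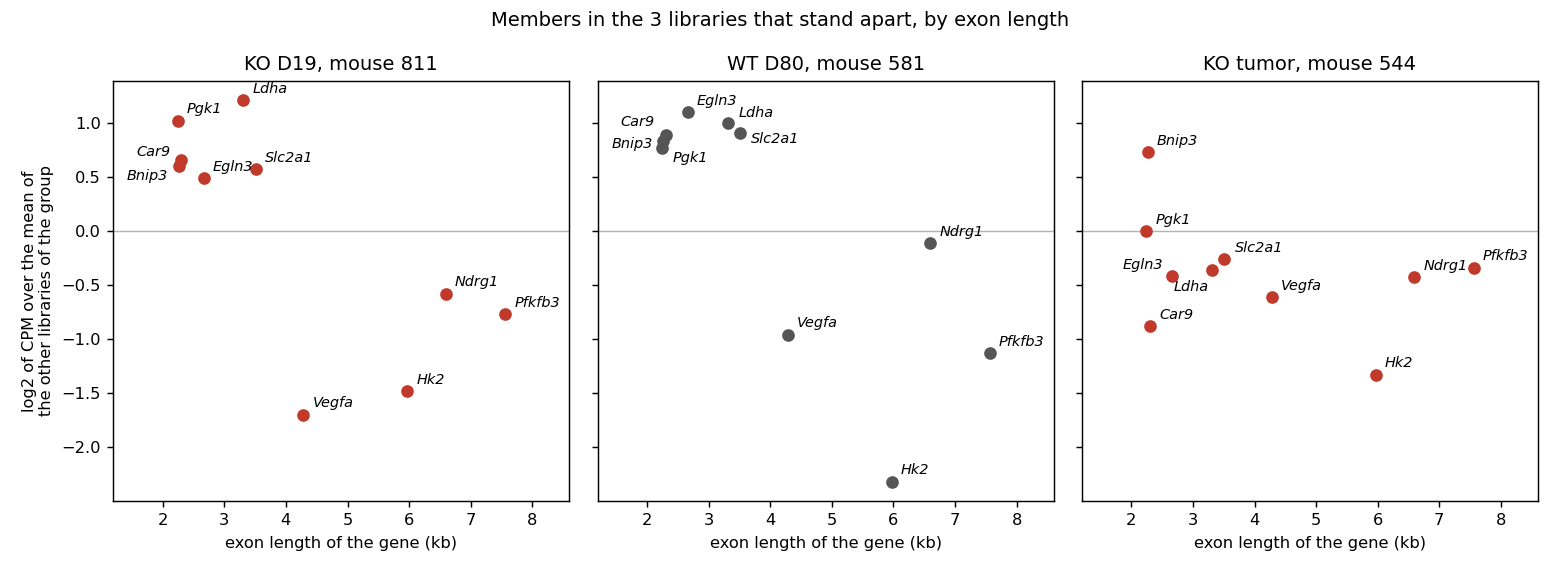
Log2 ratio of each member's CPM in KO D19 mouse 811, WT D80 mouse 581 and KO tumor mouse 544 over the mean of the other libraries of the group (vertical axis), against the exon length of the gene in kb (horizontal axes). In the left and middle panels the 6 members up to 3506 bases lie above 0 and the 4 longer members below 0, whereas in the right panel 8 of the 10 lie below 0.

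Of 9 components of the HIF pathway, *Hif1a*, the oxygen-regulated subunit, rose in colon in both genotypes. It rose 2.11-fold in KO (log2 fold change 1.08, SE 0.26, adjusted p = 0.0218, edgeR) and 1.76-fold in WT colon (0.81, SE 0.22, adjusted p = 0.0119) at D19 over D0, and 2.32-fold in KO (1.21, SE 0.24, adjusted p = 0.00193) and 2.17-fold in WT colon (1.12, SE 0.24, adjusted p = 0.0164) at D80 over D0. In D19 over D0, 1 of the 9 rose and none fell in KO colon, and 2 rose (*Hif1a* and *Arnt*) and 2 fell (*Egln1*, -0.48, and *Egln2*, -0.33) in WT colon. *Egln1* and *Egln2*, the other 2 prolyl hydroxylases, thus fell in WT colon where *Egln3* rose. At D80 over D0, 2 rose and 3 fell in KO colon (*Egln1*, -0.35, *Egln2*, -0.22, and *Cited2*, -0.58), and 1 rose in WT. In tumor over D80 colon, none rose and 2 fell in KO (*Epas1*, -1.25, and *Arnt*, -0.49), and none was called in WT. The median over the 9 was between -0.18 and 0.11 in these 6 comparisons, beside -0.06 to 0.05 over all genes. Of all genes, 13.0% in KO and 46.8% in WT were called at D19, and 53.3% and 12.9% at D80. In tumor over D80 colon the shares were 46.4% and 29.6%. With the libraries that stand apart left out, 3 rose and 2 fell at D19 over D0 in KO, 3 rose and 3 fell at D80 over D0 in WT, and in tumor over D80 colon 2 rose and 2 fell in KO and 3 fell in WT. The shares of all genes were then 27.2%, 48.2%, 55.8% and 54.9% in turn. *Hif1a* was then 1.19 (adjusted p = 0.00401) at D19 in KO and 1.25 (adjusted p = 0.000315) at D80 in WT colon. *Egln1* then also fell at D19 in KO (-0.46) and at D80 in WT colon (-0.38), and *Egln2* at D80 in WT colon (-0.25).

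Of 20 other glycolysis genes, 3 rose and 2 fell at D19 over D0 in KO colon, and 4 rose and 6 fell in WT colon. At D80 over D0, 6 rose and 5 fell in KO and 3 rose and 2 fell in WT colon. Of all genes, 13.0% in KO and 46.8% in WT were called at D19, and 53.3% and 12.9% at D80. The hexokinase *Hk3*, which is mainly made by white cells, rose 22.5-fold in KO (4.49, SE 0.44, adjusted p = 0.000152, edgeR) and 8.19-fold in WT colon (3.03, SE 0.49, adjusted p = 0.000957) at D19. *Slc16a3*, the lactate exporter MCT4, rose 4.53-fold in KO colon at D19 (2.18, SE 0.20, adjusted p = 0.000109) and 4.05-fold at D80 (2.02), where it rose 2.39-fold in WT colon (1.26, SE 0.29, adjusted p = 0.0233). *Slc16a1*, the transporter MCT1 that also carries butyrate into colonocytes, fell at D19 (-0.95) and D80 (-1.41) in KO colon. The WT values of *Slc16a1* at these stages and of *Slc16a3* at D19 are not given here, so the KO values show no difference between genotypes. *Ldhb*, the lactate dehydrogenase subunit of oxidative tissue, fell by 1.34 on the log2 scale in WT colon at D19. In tumor over D80 colon 3 rose and 8 fell in KO, beside 46.4% of all genes called, and 2 rose and 5 fell in WT, beside 29.6%. *Slc16a3* rose 2.27-fold in KO (1.18, adjusted p = 0.00986) and 3.96-fold in WT tumors (1.98, adjusted p = 0.0014), while *Slc16a1* (-0.90 in KO and -1.42 in WT) and *Pfkm*, the muscle phosphofructokinase (-0.91 in KO and -0.89 in WT), fell in both. Smooth muscle markers (10 genes) summed to 175–280 CPM in KO and 182–805 CPM in WT tumors, against 2434–3756 CPM in KO and 3919–5322 CPM in WT D80 colon, and their part in these values was not tested. With the 3 libraries that stand apart left out, 5 rose and 2 fell at D19 over D0 in KO, 6 rose and 6 fell at D80 over D0 in WT, and in tumor over D80 colon 8 rose and 9 fell in KO and 5 rose and 9 fell in WT. The shares of all genes were then 27.2%, 48.2%, 55.8% and 54.9% in turn. *Hk3*, *Slc16a3*, *Slc16a1* and *Pfkm* kept the calls named above.

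Of 21 other HIF target genes, 6 rose and none fell at D19 over D0 in KO colon, and 7 rose and 4 fell in WT colon. Among those that rose in KO colon were *Lox*, which crosslinks collagen (37.6-fold, 5.23, SE 0.46, adjusted p = 8.48e-05, edgeR), and *Angptl4*, an inhibitor of lipoprotein lipase (6.54-fold, 2.71, SE 0.38, adjusted p = 0.00117). The WT values of *Lox* and *Angptl4* at D19 are not given here, so these values show no difference between genotypes. In WT colon the smallest p were those of *Fam162a* (-1.09, SE 0.08), *Higd1a* (-1.55, SE 0.13) and *Mxi1* (-0.63, SE 0.10), which fell, and of the histone demethylase *Kdm3a* (0.82, SE 0.08), which rose. At D80 over D0, 8 rose and 3 fell in KO colon and 3 rose in WT colon. In tumor over D80 colon, 4 rose and 6 fell in KO and 2 rose and 8 fell in WT. Of all genes, 13.0% in KO and 46.8% in WT were called at D19, and 53.3% and 12.9% at D80. In tumor over D80 colon the shares were 46.4% and 29.6%. *Car12*, the other membrane carbonic anhydrase of this list, fell 6.59-fold in KO (-2.72, SE 0.20, adjusted p = 0.000186) and 6.83-fold in WT tumors (-2.77, SE 0.39, adjusted p = 0.000954), and *Stc2* and *Ppp1r3c*, which targets a phosphatase to glycogen, fell with it (-2.68 and -3.38 in KO, -2.75 and -3.08 in WT). Without the libraries that stand apart, 9 rose and 1 fell at D19 over D0 in KO, 5 rose and 5 fell at D80 over D0 in WT, and in tumor over D80 colon 4 rose and 7 fell in KO and 4 rose and 8 fell in WT. The shares of all genes were then 27.2%, 48.2%, 55.8% and 54.9% in turn. *Lox* (5.44) and *Angptl4* (2.91) at D19 in KO and *Car12*, *Stc2* and *Ppp1r3c* in both tumor comparisons kept their calls. Like the members, these targets moved in both directions.

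Between the genotypes, none of the 9, 20 and 21 genes was called in edgeR at any stage, where edgeR called 0% of all genes. Of all 19545 genes tested at D19, 2213 had an unadjusted p under 0.05. At D19 an unadjusted p under 0.05 was reached by 0, 3 and 11 of them, all higher in KO, among them *Slc16a3* (1.47, SE 0.34, adjusted p = 0.309), *Hk3* (1.85, SE 0.43, adjusted p = 0.311) and *Angptl4* (1.19, SE 0.37, adjusted p = 0.361). The median over the 21 targets was 0.55, over the 20 glycolysis genes 0.18 and over the 9 components -0.03, beside 0.01 over all genes. Without mouse 811 edgeR again called none of them at D19, and the medians were 0.44 over the targets, 0.04 over the glycolysis genes and -0.00 over the components. DESeq2 called 0, 3 and 0 of them at D19, beside 1.82% of all genes, and voom 1, 3 and 10, beside 6.62%. In the interactions of genotype and stage edgeR called 0 of them. For D19 over D0 the interaction called 0, 2 and 1 in DESeq2 (0.873% of all genes) and 0, 2 and 5 in voom (5.06%). For D80 over D0 it called 0, 0 and 1 in DESeq2 (0.178%) and 0, 0 and 2 in voom (0.341%).

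**Figure D5:**
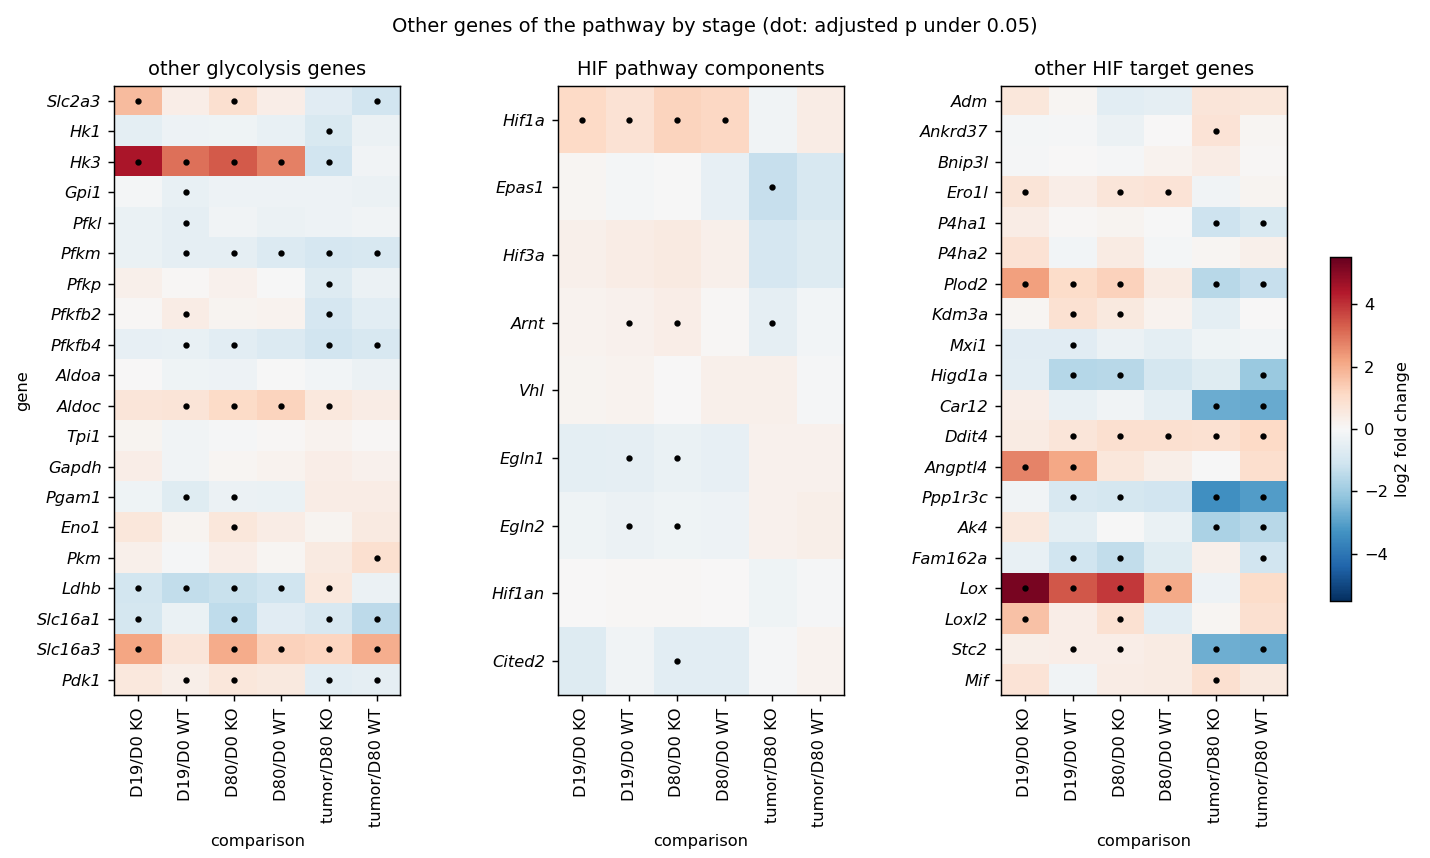
Log2 fold change (colour) of 20 other glycolysis genes, 9 HIF pathway components and 20 of the other HIF target genes (rows) in D19 over D0, D80 over D0 and tumor over D80 colon in KO and WT (columns), with a dot where the adjusted p is under 0.05 in edgeR. *Hif1a* has a dot in all 4 colon columns, *Lox* and *Hk3* are the darkest red in D19 over D0 in KO (5.23 and 4.49), and *Car12*, *Stc2* and *Ppp1r3c* are blue in both tumor columns.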

How the data were processed

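RNA from whole colon and from colon tumors was sequenced as 75 nt single-end reads. Per the study's methods and processing notes, the authors used FastQC (0.11.5) for read quality, STAR and the mm10 mouse genome for alignment, and Subread for counting per gene. The deposited values are raw counts per gene for 32 libraries, 1 per mouse and tissue. The strand setting and the treatment of reads with several matches are not given in the sources used here, so *Pgk1*, *Bnip3* and *Ldha*, which have near-identical copies, are uncertain, and a read from an overlapping antisense gene cannot be told apart. Gene positions and exon lengths come from a GENCODE annotation of GRCm38, and start windows from RefSeq.

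Each comparison was fitted to its own libraries with edgeR 4.0.16 (R 4.3.3, TMM factors, filterByExpr, quasi-likelihood test, Benjamini-Hochberg adjustment over all genes tested), and a gene was called at an adjusted p under 0.05. The SE is the log2 fold change divided by the square root of F. Interactions were fitted over 4 groups. The fits were checked on simulated counts. CPM used TMM factors over all 32 libraries, and likeness used log2 CPM with a prior count of 1. Alternatives were DESeq2 1.42.0, limma 3.58.1 voom with quality weights, RLE factors, other filters (none, or 10 counts in each library), a fold change over 2, 1 fit of all libraries, the number before the mouse number in the labels as a block, and each library left out in turn. The 3 libraries that stand apart were also left out together.

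Tumor and D80 colon share mouse numbers in the labels for 3 mice of each genotype, so these samples come from the same animals. Deviations of both samples of a mouse from their group means correlated at r = 0.0343 to 0.196 over 21467 genes. The study's methods state comparisons between genotypes only, so the unpaired fit of tumor over D80 colon was a choice made here, and the fit with the mouse as a block is given beside it. In the fit with the block, a mouse that gave only tumor or only colon does not enter the fold change.

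The members, the lists, the markers and the 3 libraries were chosen with earlier results of these data known. All members are named. Of the other lists the text names up to 4 genes with the smallest p in a comparison, so not every called gene is named. Adding the counts of near-identical copies (genes that share at least 20% of their 31-base words) was chosen after the data were seen. The values of 1 gene of the other HIF targets are not reported here, though it stays in the counts and medians of that list.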

Additional observations from a re-analysis of the deposited data

Results flagged for a closer look

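Of 70 sets of libraries examined (10 members in the 7 groups of 4 or 5 libraries), 10 held a library far from the others by Dixon's criterion, which chance meets in about 1 in 20 groups. Of these, 7 were in the libraries that stand apart. KO D19 mouse 811 was high for *Slc2a1* (227 CPM) and *Ldha* (2295 CPM). WT D80 mouse 581 was high for *Slc2a1* (257 CPM), *Ldha* (1920 CPM), *Car9* (93.4 CPM) and *Bnip3* (23.1 CPM), and low for *Vegfa* (15.5 CPM). The other 3 were *Ldha* in WT D0 mouse 851, which was low (928 CPM), *Bnip3* in WT D0 mouse 918, which was low (6.57 CPM), and *Bnip3* in WT tumor mouse 579, which was high (40.6 CPM).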

How the results depend on the processing

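Of 2429 recomputed fold changes of members, 2241 either kept a call with its direction or stayed without a call within 1 SE, 92 without a call moved by at least 1 SE, 47 lost a call, 48 gained one in the same direction and 1 gained one with the sign reversed (*Ldha* at D80 over D0 in WT, 0.01, was -0.35 in voom with quality weights). The causes were not tested. Counts of members called in KO over WT at D19 were 0 in edgeR, 1 in DESeq2 and 4 in voom, and for the D19 interaction 0, 1 and 2. Voom gave 4 rather than 2 at D19 over D0 in KO, 8 rather than 2 at D80 over D0 in WT, and 5 rather than 1 in WT tumor over D80 colon, where it called 52.1%, 58.8% and 63.2% of all genes. DESeq2 gave 2 rather than 1 in tumor over D80 colon in both genotypes, where it called 51.8% of all genes in KO and 36.8% in WT. With a fold change over 2 as well, 1 of 6 remained at D19 over D0 in WT, 1 of 5 at D80 over D0 in KO and 0 of 1 in KO tumor over D80 colon (13.4%, 21.0% and 26.7% of all genes). With all 32 libraries in 1 fit the counts were 2 at D19 over D0 in WT, 3 at D80 over D0 in KO and 3 in WT tumor over D80 colon (17.9%, 31.2% and 43.6% of all genes). KO tumor over D80 colon also had 0 with no filter and 0 with 10 counts in each library (26.3% and 44.1% of all genes). Without the libraries that stand apart, D80 over D0 in WT had 5 and WT tumor over D80 colon 3 (48.2% and 54.9% of all genes). With the mouse as a replicate block, tumor over D80 colon had 0 in KO and 6 in WT (28.9% and 48.6% of all genes). With only the 3 mice that gave both samples the counts were again 0 and 6 (28.4% and 49.6% of all genes). Other mice do not enter the fold changes of the block, so the second fit is no separate check. The block called 0 members in the interaction. The label prefix as a block called 0 members in KO over WT at each stage, and moved 14 of 40 values by at least 1 SE. Mice whose prefix occurs in only 1 genotype at a stage do not enter these fold changes. Leaving out each library in turn gave 0 to 5 at D80 over D0 in WT, 0 to 1 in KO tumor and 0 to 3 in WT tumor over D80 colon, 2 at D19 over D0 in KO, 5 to 6 in WT, 4 to 5 at D80 over D0 in KO, and 0 in each genotype comparison and interaction. The 5 and the 3 came without WT D80 mouse 581. There 48.2% and 54.9% of all genes were called, against 12.9% and 29.6% with it. The shares of all genes are not given for all of the other fits of this kind. Adding the near-identical copies changed no call of *Pgk1*, *Ldha* or *Bnip3*. The groups hold 3 to 5 mice, which limits each comparison, and *Pfkfb3*, the least abundant member per kb, had between 72 and 2212 counts per library.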
